A study of Mus musculus with 4 samples.

Results

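The 35 genes described here code for proteins of the Fanconi anemia pathway, of homologous recombination (HR) and of the ATM/ATR checkpoint, and were listed by name, with earlier results of these data known. All 35 were found, each under 1 identifier, among the 53465 genes of the deposited table. Their mRNA levels were measured by Long RNA-seq in cultured mouse cells that the labels call female germline stem cells (FGSCs) of the ovary, an identity that the marker genes given with the depth leave in doubt. The comparison asks how the transcriptome differs when *Nat10*, which codes for the enzyme that writes N4-acetylcytidine (ac4C) on RNA, is knocked down. The shNC group carried a control shRNA and the shNAT10 group an shRNA against *Nat10*, with 2 libraries each (named shNC-1 and shNC-2, and shNAT10-1 and shNAT10-2). Both the control and the *Nat10* shRNA were delivered by lentivirus, and infected cells were selected with puromycin or another antibiotic, according to the study. The study's mice were on a C57BL/6J background, while the strain of the cultured cells, their age and the harvest time are not given in the sources used here. The study calls the libraries of a group biological replicates.

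In background, the Fanconi core complex is a ubiquitin ligase that marks the FANCD2 and FANCI pair when a replication fork meets an interstrand crosslink, and nucleases then cut the crosslink out. The resulting double-strand break is trimmed to single-stranded DNA by resection enzymes, and BRCA1, PALB2, BRCA2 and further HR proteins prepare it for strand invasion, so that the sister chromatid can serve as the template. ATM and ATR sense breaks and stalled forks and act through the kinases CHK2 and CHK1, and in germ cells the same machinery serves meiotic recombination and guards the genome of the oocyte.

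Levels are in FPKM, fragments per kilobase of exon over a divisor for each library that is given with the depth. *Nat10* itself was at 7.79 and 5.42 FPKM with the control shRNA, and at 2.95 and 3.04 FPKM with the *Nat10* shRNA. The groups did not overlap, and the log2 fold change was -1.09 ± 0.21 (SE). All fold changes are shNAT10 over shNC on the scale of log2(FPKM + 0.1), which understates the change of low genes. An exact permutation test over the libraries gave p = 0.3333, two-sided, which is the smallest value that 2 libraries against 2 allow.

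The recovered depth was 11057921 to 14902434 fragments on genes per library. Loci related to rRNA took 46.6% and 35.7% of them in shNC-1 and shNC-2, and 23.8% and 25.8% in shNAT10-1 and shNAT10-2. The FPKM divisors did not follow this depth. They stood as 11.7 to 11.9 to 12.6 to 15.3 in the same order, while shNC-1 had the most fragments on genes. The median-ratio factors of the FPKM values were 1.00 in all libraries. Scaling to all fragments on genes, rRNA-related loci included, was not tested. The markers put the labelled identity of the cells in doubt. Several defining germline markers were at or near 0, while markers of hematopoietic cells were high. The study reports that its FGSCs were checked by RT-PCR for *Oct4* (*Pou5f1*), *Ddx4*, *Fragilis* and *Blimp1*. It also reports immunofluorescence of DDX4 and OCT4 in them. *Pou5f1*, *Dazl*, *Dppa3* and *Stra8* were listed at 0 in all 4 libraries, and *Ddx4* had 2 fragments in all. Of the 12 germline stem cell markers 5 had at most 3 fragments over the 4 libraries. The highest was *Ifitm3*, which codes for Fragilis, at 9.29 and 22.2 FPKM with the control shRNA and at 27.1 and 33.6 FPKM after knockdown, with a log2 fold change of 1.06 that did not pass the threshold. *Etv5* was at 6.95 and 5.89 FPKM against 3.57 and 3.47 FPKM, the one marker of the list that was lower in shNAT10, and *Zbtb16* was at 0.338 to 0.593 FPKM. The list summed to 17.0 and 28.8 FPKM for shNC and to 31.8 and 38.2 FPKM for shNAT10, most of it from *Ifitm3*. Oocyte markers summed to at most 0.292 FPKM, meiotic germ cell markers to at most 0.887 FPKM and granulosa cell markers to at most 1.12 FPKM in any library. The 8 pan-leukocyte markers, led by *Cd53*, *Coro1a* and *Lcp1*, summed to 509 and 566 FPKM for shNC and to 403 and 424 FPKM for shNAT10, and 6 of them were lower in shNAT10. The 10 mast cell markers, led by *Cpa3*, *Gata2* and *Kit*, summed to 322 and 332 FPKM for shNC and to 330.1 and 325 FPKM for shNAT10, with 3 lower and 1 higher in shNAT10 and with *Fcer1a* and *Tpsb2* at 0. The 6 macrophage markers, mostly *Adgre1*, summed to 48.1 and 52.9 against 38.1 and 43.3 FPKM, with 1 higher and 1 lower in shNAT10 and *C1qa* at 0. The 8 fibroblast markers, led by *Dcn* and *Pdgfra*, summed to 54.2 and 47.3 against 65.2 and 55.7 FPKM, with 3 higher in shNAT10 and *Lum* at 0. The pan-leukocyte and macrophage sums were lower in both shNAT10 libraries and the fibroblast sum was higher, while the mast cell and granulosa cell sums overlapped. The germline stem cell sum was higher only through *Ifitm3*. The oocyte sum was lower and the meiotic germ cell sum higher, but both rested on few fragments. Their highest genes, *Gdf9* and *Sycp3*, had at most 5 and 15 fragments in a library. The part of these markers in the results that follow was not tested.

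All 35 genes passed the filter on low values, a mean of at least 0.1 FPKM over the 4 libraries, which 20116 genes of the table passed. Their levels ran from 0.769 FPKM for *Ercc4* in shNAT10-1 to 22.2 FPKM for *Rbbp8* in shNC-1, and 32 of them had a mean of at least 1 FPKM. The median gene of the 35 was at 3.14 and 2.77 FPKM with the control shRNA and at 4.20 and 3.75 FPKM after knockdown. Summed, the 35 genes gave 138, 126, 156 and 154 FPKM in the same order, so both shNAT10 libraries stood above both controls. Each gene rested on 37 fragments (*Xrcc3* in shNC-2) to 3694 fragments (*Rbbp8* in shNAT10-2) in a library. For *Brca2* in shNC-1, a count of 379 fragments has an exact 95% Poisson interval of 342 to 419, which covers counting error only.

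**Figure D1:**
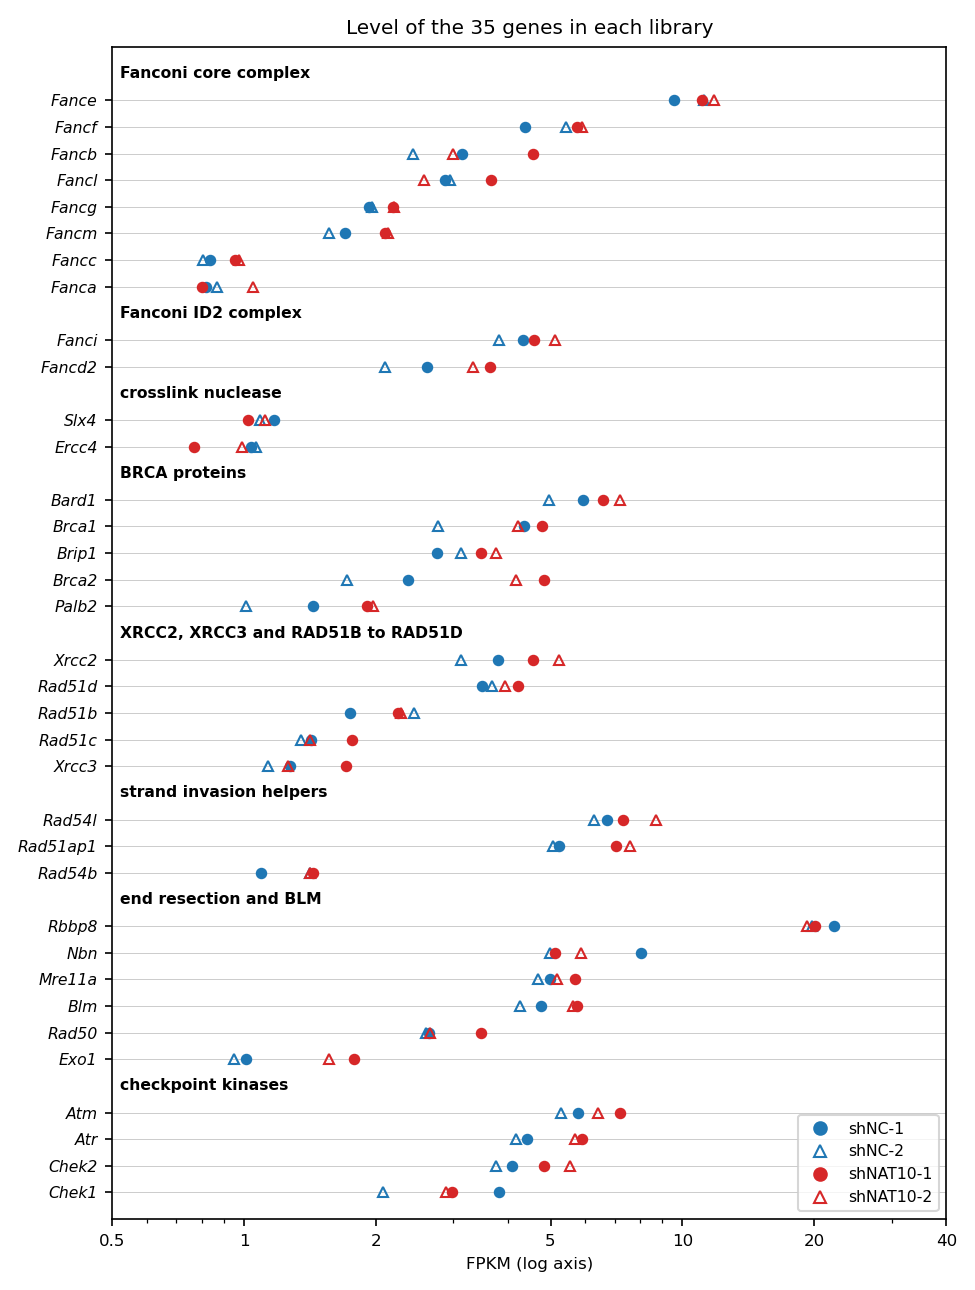
FPKM (log axis) of the 35 genes in the 4 libraries, grouped by role and ordered within each group by mean level. Blue stands for shNC and red for shNAT10, with circles for replicate 1 and triangles for replicate 2. Both red points lie to the right of both blue points for 21 genes, most widely for *Brca2*, and to the left only for *Ercc4*, while *Rbbp8* has the highest level.

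Of the 35 genes, 9 (25.7%) rose in shNAT10, which here means a fold change over 1.2 with an unadjusted p of at most 0.05 by limma. Of all 20116 genes tested, 8.41% were higher and 7.83% lower by the same rule. The risers were *Brca2*, *Exo1*, *Palb2*, *Fancd2*, *Rad51ap1*, *Xrcc2*, *Atr*, *Chek2* and *Blm*, and none of the 35 was lower, also with limma-voom on the recovered fragments. The log2 fold change was above 0 for 31 genes and below 0 for *Slx4*, *Rbbp8*, *Nbn* and *Ercc4*. The median log2 fold change of the 35 was 0.25, a level 19.0% higher in shNAT10, beside 0.01 over all genes tested. In bulk RNA, more cells that express these genes and more RNA per cell cannot be told apart. None of the 35 (0) reached an adjusted p under 0.05 by limma with Benjamini-Hochberg adjustment, although 9 had an unadjusted p of at most 0.05. Of all genes tested, 0.437% reached that adjusted level. With limma-voom 14 were called, the same 9 and *Brca1*, *Bard1*, *Fancm*, *Rad54l* and *Atm*, beside 10.1% of all genes by that fit. Of the 35, 6 had an adjusted p under 0.05 by limma-voom, namely *Brca2*, *Atr*, *Exo1*, *Fancd2*, *Rad51ap1* and *Palb2*. The share of all genes with such a p and a higher level was 4.23%. Among the genes with a mean of at least 1 FPKM, 10.8% were higher by the limma fit on log2(FPKM + 0.1), and a fit made on those genes alone called 8 of the 32 members it kept, without *Palb2*.

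In 21 genes (60%) both shNAT10 libraries lay above both shNC libraries, which held for 23.9% of all genes tested. In 1 gene, *Ercc4*, both lay below, against 24.1% of all genes, and in 13 the groups overlapped. Centred on the mean of the shNC libraries, the median of the 35 was 0.05 and -0.05 in shNC-1 and shNC-2, and 0.28 and 0.22 in shNAT10-1 and shNAT10-2, on the log2 scale. The difference between groups was thus wider than that between the libraries of a group. The controls were not alike, since shNC-2 was lower than shNC-1 in 25 of the 35 genes, with a median gap of -0.09.

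**Figure D2:**
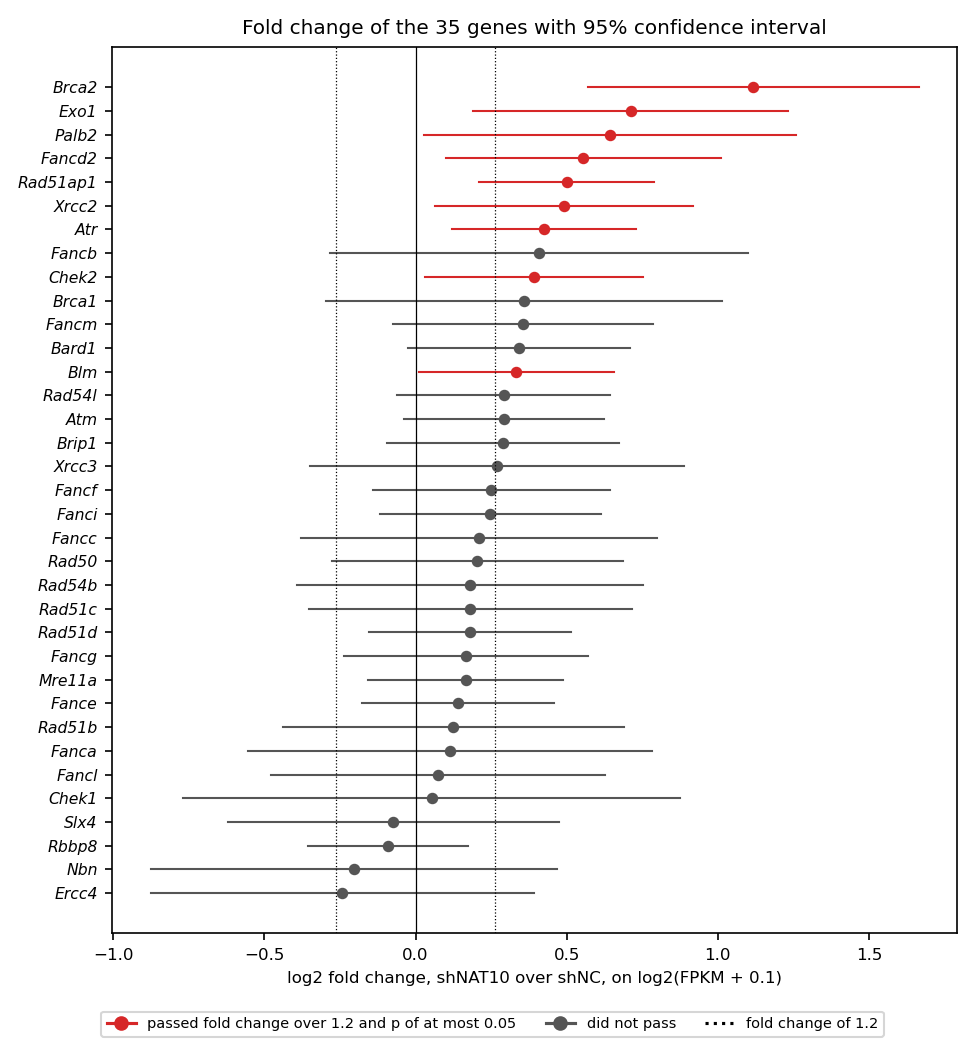
Log2 fold change of the 35 genes, shNAT10 over shNC, on the scale of log2(FPKM + 0.1), with limma's 95% confidence interval as a line and the fold change of 1.2 in either direction as dotted lines. The 9 genes in red passed the threshold, from *Brca2* at 1.12 to *Blm* at 0.33, and the 4 genes left of 0 all have intervals that cross 0.

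The BRCA proteins held the largest fold change of the 35 (positions are on GRCm38, by GENCODE M21). *Brca2* (ENSMUSG00000041147, plus strand of chromosome 5 from 150522630 to 150570329), whose protein binds single-stranded DNA and is essential for HR, was at 2.37 and 1.72 FPKM with the control shRNA and at 4.83 and 4.17 FPKM with the *Nat10* shRNA. Both shNAT10 libraries thus held over 4 FPKM where neither control reached 2.5 FPKM. The log2 fold change was 1.12 ± 0.21 (SE), with a 95% confidence interval of 0.57 to 1.66. The adjusted p was 0.122 by limma with Benjamini-Hochberg adjustment, and 2.79e-06 by limma-voom. The call of *Brca2* was lost with either shNAT10 library left out. *Palb2* (ENSMUSG00000044702, minus strand of chromosome 7 from 122107262 to 122132985), which codes for the bridge between BRCA1 and BRCA2, was at 1.44 FPKM (shNC-1), 1.01 FPKM (shNC-2), 1.91 FPKM (shNAT10-1) and 1.97 FPKM (shNAT10-2). The libraries of the shNAT10 group were close to each other and those of the shNC group were further apart, and the log2 fold change was 0.64 ± 0.23 (SE), with an adjusted p of 0.284 by limma. The call was lost under both other filters on low values, with limma without trend and without shNC-2 or either shNAT10 library. *Brca1*, a ubiquitin ligase that promotes resection and recruits PALB2, was at 4.78 and 4.22 FPKM after knockdown (shNAT10-1 and shNAT10-2), against 4.36 and 2.77 FPKM in the controls (shNC-1 and shNC-2). Its groups overlapped, since shNC-1 exceeded shNAT10-2, and the log2 fold change was 0.36 ± 0.25 (SE). That value was 0.04 without shNC-2 and 0.68 without shNC-1. *Bard1*, the obligate partner of BRCA1, was at 5.93 and 4.97 FPKM with the control shRNA and at 6.60 and 7.22 FPKM with the *Nat10* shRNA. *Brip1*, a helicase that binds BRCA1, was at 2.75 FPKM (shNC-1), 3.13 FPKM (shNC-2), 3.47 FPKM (shNAT10-1) and 3.75 FPKM (shNAT10-2). The groups of *Bard1* and *Brip1* did not overlap, but with log2 fold changes of 0.34 ± 0.14 (SE) and 0.29 ± 0.15 (SE) neither passed the threshold.

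Among the 8 genes of strand invasion and its accessory complexes, 2 rose. *Rad51ap1* (ENSMUSG00000030346, minus strand of chromosome 6 from 126923050 to 126939587), whose protein helps strand invasion, was at 7.07 and 7.58 FPKM after knockdown (shNAT10-1 and shNAT10-2), against 5.22 and 5.08 FPKM in the controls (shNC-1 and shNC-2). The gap between the groups was wide beside the gaps within them, and the log2 fold change was 0.50 ± 0.11 (SE), with an interval of 0.21 to 0.79 and an adjusted p of 0.152 by limma. It was the one member of the 35 that passed the threshold whichever library was left out, with log2 fold changes of 0.45 to 0.55. *Rad54l*, a motor protein that remodels DNA during strand invasion, was at 6.73 and 6.27 FPKM with the control shRNA and at 7.31 and 8.71 FPKM with the *Nat10* shRNA. Its groups did not overlap, and the log2 fold change of 0.29 ± 0.13 (SE) did not pass. *Rad54b*, its relative, was at 1.09 FPKM (shNC-1), 1.41 FPKM (shNC-2), 1.43 FPKM (shNAT10-1) and 1.41 FPKM (shNAT10-2), with overlapping groups. A share of 35.8% of its exon bases is shared with *Fsbp* on the same strand, so the fragments of these genes may be mixed.

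*Xrcc2*, *Xrcc3*, *Rad51b*, *Rad51c* and *Rad51d* code for proteins that form accessory complexes of HR. Of these 5, *Xrcc2* (ENSMUSG00000028933, minus strand of chromosome 5 from 25689812 to 25705825) was highest on average and was at 4.55 and 5.21 FPKM after knockdown (shNAT10-1 and shNAT10-2), against 3.79 and 3.12 FPKM in the controls (shNC-1 and shNC-2). Both shNAT10 libraries lay above both controls, and the log2 fold change was 0.49 ± 0.16 (SE), with an adjusted p of 0.254 by limma. Its call was lost without shNC-2 or either shNAT10 library and with limma without trend. *Rad51d*, which binds XRCC2, was at 3.48 and 3.67 FPKM with the control shRNA and at 4.20 and 3.93 FPKM with the *Nat10* shRNA, also without overlap, with a log2 fold change of 0.18 ± 0.13 (SE). *Rad51b*, *Rad51c* and *Xrcc3* were lower, at 1.74 and 2.44 FPKM against 2.25 and 2.27 FPKM, 1.42 and 1.35 FPKM against 1.76 and 1.41 FPKM and 1.27 and 1.13 FPKM against 1.71 and 1.26 FPKM, in this order. The groups overlapped for all 3, and their log2 fold changes of 0.12, 0.18 and 0.27 did not pass.

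None (0 of 8) of the Fanconi core complex genes passed the threshold. Of all genes tested 8.41% were higher, so with 8 genes this count is near the background. All 8 log2 fold changes were above 0, with a median of 0.19. None had an unadjusted p of at most 0.05 by limma (0 of 8), and limma-voom called *Fancm*. The largest was that of *Fancb*, which codes for a subunit of the catalytic module, at 3.14 FPKM (shNC-1), 2.43 FPKM (shNC-2), 4.57 FPKM (shNAT10-1) and 2.996 FPKM (shNAT10-2). Here shNAT10-1 alone was high, shNAT10-2 lay below shNC-1, and the log2 fold change was 0.41 ± 0.26 (SE). *Fancm*, a translocase that anchors the complex on DNA, was at 2.10 and 2.13 FPKM after knockdown (shNAT10-1 and shNAT10-2), against 1.70 and 1.57 FPKM in the controls (shNC-1 and shNC-2). The libraries of each group of *Fancm* were close, and the log2 fold change was 0.36 ± 0.16 (SE). *Fancl*, the ubiquitin ligase subunit, was at 2.88 and 2.95 FPKM with the control shRNA and at 3.66 and 2.57 FPKM with the *Nat10* shRNA. One shNAT10 library of *Fancl* was the highest of the 4 and the other the lowest. *Fance*, whose protein links the core complex to FANCD2, had the highest level of the 8, at 9.58 and 11.2 FPKM against 11.1 and 11.8 FPKM in shNC and shNAT10, and its groups overlapped. *Fancf* and *Fancg*, which code for adaptor subunits, were at 4.38 and 5.43 FPKM against 5.75 and 5.90 FPKM and at 1.93 and 1.95 FPKM against 2.18 and 2.20 FPKM. Neither of these overlapped between the groups, with log2 fold changes of 0.25 and 0.17. *Fanca* and *Fancc* were the lowest of the complex, at 0.816 and 0.865 FPKM against 0.800 and 1.05 FPKM and at 0.835 and 0.806 FPKM against 0.953 and 0.975 FPKM, and their log2 fold changes were 0.11 and 0.21.

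Of the pair that the complex acts on, 1 gene rose. *Fancd2* (ENSMUSG00000034023, plus strand of chromosome 6 from 113531682 to 113597017), which codes for the protein that is ubiquitinated at blocked forks, was at 2.61 FPKM (shNC-1), 2.09 FPKM (shNC-2), 3.63 FPKM (shNAT10-1) and 3.33 FPKM (shNAT10-2). Both shNAT10 libraries exceeded both controls, and the log2 fold change was 0.56 ± 0.17 (SE). The adjusted p was 0.240 by limma and 0.0271 by limma-voom. The call of *Fancd2* was lost without shNC-2 (log2 fold change of 0.40) and with either shNAT10 library left out. *Fanci*, its partner, was at 4.58 and 5.12 FPKM after knockdown (shNAT10-1 and shNAT10-2), against 4.32 and 3.82 FPKM in the controls (shNC-1 and shNC-2). Its groups did not overlap either, and the log2 fold change of 0.25 ± 0.14 (SE) did not pass. The difference between *Fancd2* and the core complex genes was not tested.

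Neither gene of the crosslink nucleases passed the threshold, and both log2 fold changes were below 0. *Ercc4*, which codes for the XPF subunit that cuts beside a crosslink, was at 1.04 and 1.06 FPKM with the control shRNA and at 0.769 and 0.989 FPKM with the *Nat10* shRNA. Both shNAT10 libraries were below both controls, but shNAT10-2 was close to them, and the log2 fold change of -0.24 ± 0.24 (SE) did not pass. *Slx4*, a scaffold that holds XPF and other nucleases, was at 1.17 FPKM (shNC-1), 1.09 FPKM (shNC-2), 1.02 FPKM (shNAT10-1) and 1.12 FPKM (shNAT10-2), with overlapping groups and a log2 fold change of -0.07 ± 0.21 (SE).

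Of the genes of end resection and of the BLM helicase, 2 of 6 rose. *Exo1* (ENSMUSG00000039748, plus strand of chromosome 1 from 175880581 to 175913489), the exonuclease of long-range resection, was at 1.78 and 1.56 FPKM after knockdown (shNAT10-1 and shNAT10-2), against 1.01 and 0.950 FPKM in the controls (shNC-1 and shNC-2). It was the lowest of the 6 and moved the most, with a log2 fold change of 0.71 ± 0.20 (SE) and an adjusted p of 0.210 by limma, while it lost the call in each of the 4 fits that left out a library. *Blm* (ENSMUSG00000030528, minus strand of chromosome 7 from 80454733 to 80535119), a helicase that works with resection and undoes joined DNA molecules, was at 4.75 and 4.25 FPKM with the control shRNA and at 5.75 and 5.63 FPKM with the *Nat10* shRNA. Its groups did not overlap and the log2 fold change was 0.33 ± 0.12 (SE), the smallest of the 9. The call was lost with scaling to the same FPKM total, with quantile normalization, with limma without trend and without shNC-2 or either shNAT10 library. *Mre11a*, *Rad50* and *Nbn* code for the MRN complex, which holds broken ends and activates ATM. *Mre11a* was at 4.98 FPKM (shNC-1), 4.69 FPKM (shNC-2), 5.70 FPKM (shNAT10-1) and 5.18 FPKM (shNAT10-2), and *Rad50* at 3.47 and 2.66 FPKM after knockdown (shNAT10-1 and shNAT10-2), against 2.65 and 2.60 FPKM in the controls (shNC-1 and shNC-2). The groups of both lay apart by little, with log2 fold changes of 0.17 ± 0.12 (SE) and 0.20 ± 0.18 (SE). *Nbn* was at 8.03 and 4.99 FPKM with the control shRNA and at 5.13 and 5.87 FPKM with the *Nat10* shRNA. One control library of *Nbn* stood above the other 3 libraries, and the log2 fold change of -0.20 ± 0.25 (SE) became 0.13 without shNC-1. *Rbbp8*, which codes for CtIP, the partner of MRN that starts resection, was at 22.2 FPKM (shNC-1), 19.7 FPKM (shNC-2), 20.03 FPKM (shNAT10-1) and 19.2 FPKM (shNAT10-2). It was the most abundant of the 35, with overlapping groups and a log2 fold change of -0.09 ± 0.10 (SE).

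Of the 4 checkpoint kinases 2 rose. *Atr* (ENSMUSG00000032409, plus strand of chromosome 9 from 95857597 to 95951781), the kinase that senses single-stranded DNA at stalled forks, was at 5.91 and 5.69 FPKM after knockdown (shNAT10-1 and shNAT10-2), against 4.41 and 4.17 FPKM in the controls (shNC-1 and shNC-2). The libraries of each group were close, both shNAT10 libraries were above both controls, and the log2 fold change was 0.43 ± 0.12 (SE). The adjusted p was 0.206 by limma and 0.0106 by limma-voom. The call of *Atr* was lost with either shNAT10 library left out. *Chek2* (ENSMUSG00000029521, plus strand of chromosome 5 from 110839979 to 110874145), the effector kinase below ATM, was at 4.09 and 3.76 FPKM with the control shRNA and at 4.83 and 5.54 FPKM with the *Nat10* shRNA. Its groups lay apart too, with a log2 fold change of 0.39 ± 0.14 (SE), an adjusted p of 0.272 by limma and one of 0.217 by limma-voom. Its call was lost in each of the 4 fits that left out a library and with limma without trend. *Atm*, the kinase that answers to double-strand breaks, was at 5.79 FPKM (shNC-1), 5.30 FPKM (shNC-2), 7.22 FPKM (shNAT10-1) and 6.40 FPKM (shNAT10-2), without overlap and with a log2 fold change of 0.29 ± 0.13 (SE) that did not pass. *Chek1*, the effector kinase below ATR, was at 2.97 and 2.88 FPKM after knockdown (shNAT10-1 and shNAT10-2), against 3.82 and 2.07 FPKM in the controls (shNC-1 and shNC-2). Both shNAT10 libraries lay between the controls, and the log2 fold change of 0.05 ± 0.31 (SE) turned to -0.37 without shNC-2.

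Promoter windows are shown for 3 of the 4 risers whose window held a searched motif, since 121 of the 250 bases of that of *Blm* lie inside the gene as GENCODE M21 places it. For *Chek2* 4 bases do, and for *Brca2* and *Rad51ap1* 0 do. RefSeq promoters (GRCm38.p6) were found for 27 of the 35 genes, with 30 starts in all, and the 250 bases before each start were searched on both strands. The searched motifs were the E2F site (TTTCCCGC, TTTCGCGC, TTTGCCGC or TTTGGCGC), the CCAAT box (CCAAT) and the cell cycle homology region or CHR (TTTGAA or TTTAAA), elements known from promoters of genes that are expressed in S phase or in mitosis. In the windows of *Brca2*, *Chek2* and *Rad51ap1* that follow, written in the direction of the gene, capitals mark matches to the E2F site and the CCAAT box on either strand.
*Brca2*, chr5:150522371-150522620, plus strand: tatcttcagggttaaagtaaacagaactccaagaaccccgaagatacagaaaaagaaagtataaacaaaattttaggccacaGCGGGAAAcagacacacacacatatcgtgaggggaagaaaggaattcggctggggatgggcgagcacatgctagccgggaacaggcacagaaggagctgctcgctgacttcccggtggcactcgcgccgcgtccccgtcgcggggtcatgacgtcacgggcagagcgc
*Chek2*, chr5:110839733-110839982, plus strand: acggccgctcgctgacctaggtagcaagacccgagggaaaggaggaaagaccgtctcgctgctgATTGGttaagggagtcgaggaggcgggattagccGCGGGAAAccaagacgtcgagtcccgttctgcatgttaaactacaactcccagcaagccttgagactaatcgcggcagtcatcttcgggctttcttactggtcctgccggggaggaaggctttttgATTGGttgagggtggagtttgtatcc
*Rad51ap1*, chr6:126939588-126939837, minus strand: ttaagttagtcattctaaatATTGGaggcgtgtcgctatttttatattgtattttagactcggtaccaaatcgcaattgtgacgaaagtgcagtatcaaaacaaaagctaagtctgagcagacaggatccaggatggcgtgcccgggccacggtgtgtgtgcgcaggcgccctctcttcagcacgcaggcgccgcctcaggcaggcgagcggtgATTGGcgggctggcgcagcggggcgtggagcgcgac
The E2F match starts 168 bases before the start of *Brca2* and 152 before that of *Chek2*, where CCAAT matches stand at 186 and 26. The CCAAT matches stand at 230 and 36 bases before the start of *Rad51ap1* and at 186 and 161 before that of *Blm*. The windows of *Atr* and *Palb2* held none of the 3 motifs. Over the gene set, an E2F site stood in 4 of 30 windows (13.3%), those of *Bard1*, *Brca2*, *Chek2* and *Fancg*, and in 1.86% of all 32851 windows of the same length. A CCAAT box stood in 20 of 30 (66.7%) and in 33.9% of all windows, and a CHR in 3 of 30 (10%) and in 25.2%. By gene, the E2F site, CCAAT box and CHR stood in 4, 18 and 3 of the 27 genes with a promoter. Among the 6 risers with a promoter they stood in 2, 3 and 0. A match is a description of letters and not a site.

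The calls depended on the libraries. Without shNC-1 the rule gave 10 calls, which lacked *Exo1* and *Chek2* and added *Brca1*, *Bard1* and *Chek1*. Without shNC-2 it gave 4, of which 3 were among the 9, namely *Brca2*, *Rad51ap1* and *Atr*, with *Fancf* as the other, and without either shNAT10 library it gave 1, *Rad51ap1*. In such a fit the lone library of a group is assumed to vary like the other group. The fold changes of all 9 stayed above 0 in all 4 fits, the lowest being 0.25 for *Blm* without shNC-2, and 27 of the 35 genes stayed above 0 throughout. The log2 fold change of *Brca2* ran from 0.90 without shNC-2 to 1.34 without shNC-1, and that of *Palb2* from 0.41 to 0.88.

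**Figure D3:**
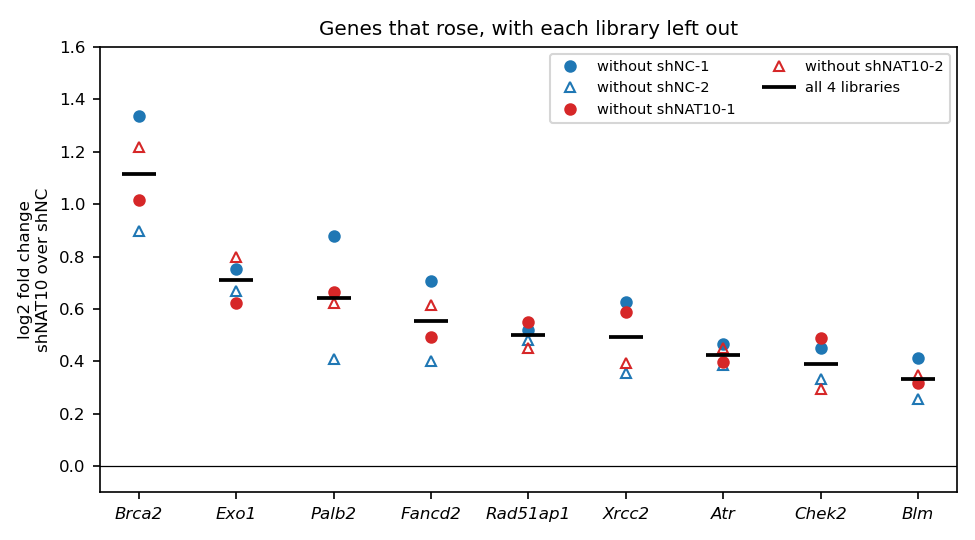
Log2 fold change (shNAT10 over shNC) of the 9 genes that rose, from all 4 libraries (black bars) and with each library left out (symbols, colored by the group of the library that was left out). All points lie above 0, the widest spread is that of *Palb2* at 0.41 to 0.88, and the narrowest is that of *Atr* at 0.39 to 0.47.

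The median GC content of the 9 risers was 46.2% (40.8% to 47.3%), beside 45.9% (41.0% to 61.4%) for the other 26 genes and 48.9% over all genes tested. The median exon length was 7937 bases beside 5716.5 bases. With trends on GC content and length removed from each library, an alternative chosen after seeing the data, the same 9 genes were called. Exon bases of 16 members are shared with another gene, over 10% of the length in 7 of them, and the strand setting of the counting is not given in the sources used here. Among the 9, the largest such share was 5.64% of *Palb2*, with a gene on the opposite strand.

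Among 50 further genes of HR, Fanconi anemia and the checkpoints, 13 rose (26%) and 0 fell, and their median log2 fold change was 0.12. Unadjusted p-values of at most 0.05 numbered 13 by limma, and adjusted p-values under 0.05 numbered 0 by limma and 10 by limma-voom. *Dna2*, a nuclease and helicase that works beside EXO1 in resection, had the largest fold change of the genes that rose, at 4.19 and 4.22 FPKM after knockdown against 1.85 and 1.59 FPKM in the controls. Its log2 fold change was 1.24 ± 0.15 (SE), with an adjusted p of 0.0711 by limma. *Fignl1*, an ATPase of HR, *Faap24*, the partner of FANCM, *Clspn*, the adaptor between ATR and CHK1, *Tipin*, a fork protection factor, and *Etaa1*, an activator of ATR, were the next largest among the genes that rose, with log2 fold changes of 0.74, 0.70, 0.69, 0.63 and 0.58. *Gen1*, which codes for a nuclease that cuts joined DNA molecules, is named after its values were seen. Its log2 fold change of 0.81 did not pass the threshold by limma, with an adjusted p of 0.0103 by limma-voom. That value was 0.34 without shNC-2 and 1.27 without shNC-1. The count of 13 was 11 without shNC-1, 6 without shNC-2, 3 without shNAT10-1 and 4 without shNAT10-2, and *Faap24* lost its call in all 4 fits.

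Of 32 DNA replication genes 17 rose (53.1%) and 0 fell, with a median log2 fold change of 0.38, and the groups lay apart upward in 31. The largest was that of *Rrm1*, a subunit of ribonucleotide reductase, at 15.6 and 14.6 against 26.5 and 27.9 FPKM (log2 fold change of 0.84 with an adjusted p of 0.0584 by limma). *Tyms*, which makes thymidylate, *Ccne2* and *Ccne1*, cyclins of the entry into S phase, *Mcm6*, a subunit of the replicative helicase, and *Pcna*, the sliding clamp, had log2 fold changes of 0.66, 0.63, 0.53, 0.55 and 0.51. Of 24 mitosis genes 11 rose (45.8%) and 0 fell, with a median of 0.28. *Cenpf* and *Cenpe*, which act at the kinetochore, had log2 fold changes of 0.82 and 0.80. *Kif11*, *Kif20a* and *Kif2c*, motor proteins of the spindle and of cytokinesis, had 0.72, 0.48 and 0.45. *Ccna2*, a cyclin of S phase and G2, had 0.44. Without shNC-2 these values were 0.56, 0.40, 0.81, 0.30, 0.47 and 0.26, in the same order. No gene of either list reached an adjusted p under 0.05 by limma (0 of 32 and 0 of 24), while 11 and 7 did by limma-voom. The count of 17 replication genes was 19 without shNC-1, 11 without shNC-2, 3 without shNAT10-1 and 5 without shNAT10-2. The count of 11 mitosis genes was 10, 9, 5 and 4 in the same order. Of the 35 HR and checkpoint genes, 9 had a fold change above the median of the replication genes. These were the risers apart from *Blm*, together with *Fancb*, which was not called.

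These lists split by library as the 35 genes did. The DNA replication genes had medians of 0.05 and -0.05 in the controls and 0.39 and 0.40 after knockdown, centred as above, and the mitosis genes of 0.12 and -0.12, and of 0.33 and 0.30. In each of these lists, as in the 35, shNC-2 was the lowest library. No test between the lists was made, and the part of the replication and mitosis genes in the values of the 35 genes was not tested.

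**Figure D4:**
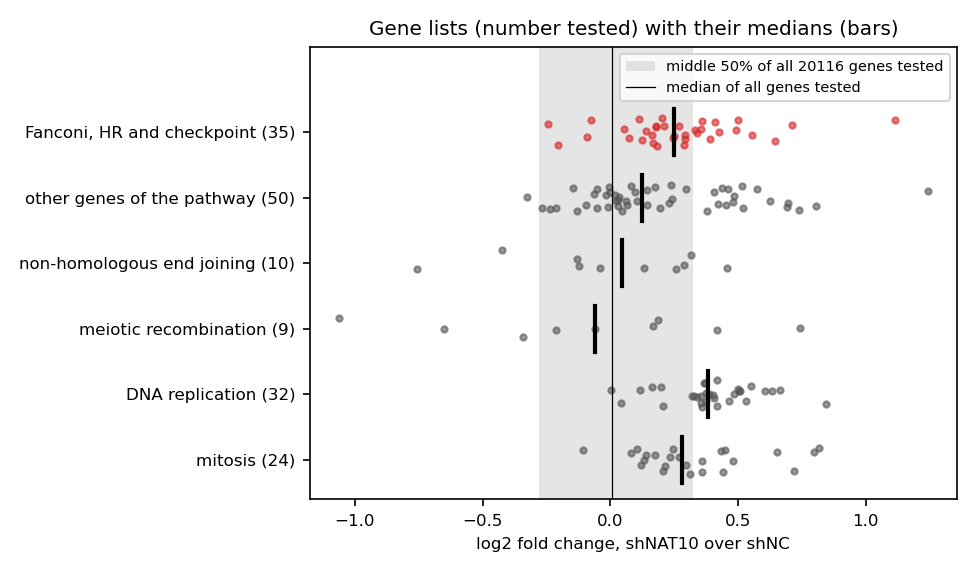
Log2 fold change, shNAT10 over shNC, of each gene (points) in the 35 HR and checkpoint genes (red) and in 5 other lists (grey), with the number tested in brackets and the median as a black bar. The grey band is the middle 50% of all genes tested and the vertical line their median of 0.01. The bars stand at 0.25 for the 35 genes, 0.38 for DNA replication and 0.28 for mitosis.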

How the data were processed

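Long RNA-seq of 2 shNC and 2 shNAT10 libraries was grouped by the titles of the sample labels. The methods give rRNA-depleted libraries (the labels describe mRNA isolation) aligned with HISAT2, and cutadapt, DESeq2 and mm10 are in the submitters' processing notes. The counting program and its annotation are not given in the sources used here. The authors deposited FPKM per gene; the median-ratio factors of these values are 1.00 in all libraries. A second file with the authors' log2 fold changes and p-values for part of the genes was not used. Columns left out numbered 0.

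Groups were compared with limma 3.58.1 (R 4.3.3, trend, no block, two-sided) on log2(FPKM + 0.1) for genes with a mean of at least 0.1 FPKM, and p-values were adjusted by Benjamini-Hochberg over all genes tested. The rest used Python 3.11.15. Whole fragments were recovered from FPKM with exon lengths of GENCODE M21 (GRCm38, 99.8% of identifiers matched); of values under 50 fragments, 96.0% to 96.6% lay within 0.02 of a whole number. The 24 rRNA-related loci, of which 20 were found, were used in scaling alternatives. The fit was tested on simulated data.

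The 35 genes and all lists were chosen with earlier results of these data known, and 1 gene of the list of further pathway genes is not reported here. All 35 are named, and from each pathway list up to 6 called genes by size of fold change, and from each marker list up to 3 genes by mean FPKM, beside *Ddx4* and *Pou5f1*. Other markers were named after their values were seen. Same-numbered libraries did not deviate together (r = 0.00711 over 20116 genes), and the main fit has no block. A shared source of such libraries is neither given nor excluded.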

Additional observations from a re-analysis of the deposited data

How the results depend on the processing

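With 2 libraries per group the confidence intervals of the 35 log2 fold changes had a median width of 0.91, and the intervals of the 26 genes that were not called leave room for changes in either direction. The count of 9 higher genes was 8 or 9 under both other pseudocounts, both other filters, 3 rescalings and the removal of GC and length trends. Median-ratio rescaling had factors of 1.00 in all 4 libraries and so could change nothing. It was 5 with limma without trend (*Palb2*, *Xrcc2*, *Chek2* and *Blm* were lost) and 14 with limma-voom. The replicate block gave 5, with those 4 genes lost. Whether same-numbered libraries share a source is not given, and an r of 0.00711 between them cannot exclude it. Leaving out 1 library gave 1 to 10 genes (10 without shNC-1, 4 without shNC-2, 1 without either shNAT10 library), and the cause was not tested beyond the smaller number of libraries. No alternative called a member lower. The median log2 fold change was 0.22 to 0.33 with 1 library left out and 0.21 to 0.30 otherwise. The genes whose groups lay apart downward numbered 0 with a mean of at least 1 FPKM (a filter that removes *Ercc4*) and with scaling to the same FPKM total, 3 with GC and length trends removed, and 2 to 5 with 1 library left out. Over all genes tested, 1108 to 1734 were higher and 899 to 1659 lower with 1 library left out. The log2 fold change of *Nat10* was -1.35 to -0.83 with 1 library left out, and it did not pass without shNAT10-1 (-1.07) or shNAT10-2 (-1.11). Leaving out 1 library turned the sign of *Rad51b* (-0.11 to 0.36), *Fanca* (-0.063 to 0.29), *Fancl* (-0.17 to 0.32), *Chek1* (-0.37 to 0.48) and *Nbn* (-0.54 to 0.13), and *Chek1* was at -0.0051 with GC and length trends removed. None of these 5 was called by the main test.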

Other observations

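Of 10 genes of non-homologous end joining, which rejoins broken ends without a template, 1 rose and 2 fell, and the median log2 fold change was 0.05. Of all genes tested, 8.41% were higher and 7.83% lower, so with 10 genes these counts are near the background. With 1 library left out, 0 or 1 of the 10 rose and 0 or 1 fell. *Paxx*, a scaffold of the joining complex, was at 8.57 and 10.3 FPKM in shNC and at 5.82 and 5.24 FPKM in shNAT10, with a log2 fold change of -0.76 ± 0.14 (SE) and an adjusted p of 0.123 by limma. *Lig4*, the ligase of the pathway, fell from 2.21 and 2.38 to 1.71 and 1.66 FPKM (log2 fold change of -0.42), and its call was lost in each of the 4 fits that left out a library, with a pseudocount of 1 and with either other filter on low values. *Nhej1*, which codes for XLF, was at 6.47 and 6.63 against 8.48 and 7.88 FPKM (log2 fold change of 0.31), and limma-voom did not call it.

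Of 20 genes of meiotic recombination, which makes and repairs the programmed breaks of meiosis, 9 passed the filter on low values. *Mei4*, which is needed to make the breaks, fell from 1.61 and 1.23 FPKM in shNC to 0.541 and 0.712 FPKM after knockdown. Its log2 fold change was -1.06 ± 0.27 (SE), with an adjusted p of 0.191 by limma, and its call was lost in each of the 4 fits that left out a library. The median of the 9 was -0.06, none of them rose (0 by limma) and 1 fell, and 1 had an adjusted p under 0.05 by limma-voom. Of all genes tested, 8.41% were higher and 7.83% lower, so with 9 genes these counts are near the background.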
